A study of Mus musculus with 2 samples.

Results

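Box H/ACA small nucleolar RNAs (symbols starting with Snora) and small Cajal body RNAs (symbols starting with Scarna) were compared between the liver of an irradiated and a control mouse sample. Every gene with one of these symbol prefixes was taken, which gave 31 of the 22180 genes on the array, 26 Snora and 5 Scarna genes. The control group was untreated male C57BL/6 liver at 9 weeks of age, on 1 array. The irradiated group was male C57BL/6 liver of the same age, on 1 array, taken 5 weeks after the whole body was exposed once to 6 Gy of gamma rays, at 4 weeks of age. The dose rate was 0.81 Gy per minute. C57BL/6 is an inbred laboratory strain. The labels leave it unstated whether each RNA was from 1 animal or a pool, and whether the controls were also anesthetized. With 1 array per group no difference below has a replicate check, and no test was made. Values are log2 RMA values, that is, background-corrected and normalized probe set summaries on a log2 scale, and differences are irradiated minus control.

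Box H/ACA RNAs fold into paired hairpins and guide the pseudouridine synthase dyskerin to chosen uridines, mostly of ribosomal RNA. Most of them are not transcribed on their own in mammals, but are cut out of introns of a host gene and trimmed by exonucleases, so that the RNA and the spliced host transcript come from the same precursor. Small Cajal body RNAs guide the modification of spliceosomal RNAs in the Cajal body, a nuclear compartment. The Scarna prefix does not stand for one box class. Scarna2 and Scarna17 are known as box C/D RNAs, which guide methylation, and Scarna10 carries both box types, so the label H/ACA holds for the Snora genes but not for all of the Scarna genes.

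The irradiated array read lower for many of these RNAs, and the largest differences were at Snora genes. At least 1.5-fold lower were 8 of the 31 genes, where 0.888% of all 22180 genes were, and 5 of them were at least 2-fold lower, where 0.144% of all genes were. The 8 were Snora15, Snora34, Snora16a, Snora62, Snora33, Snora75, Snora74a and Snora7a. Snora44 went the other way and was the 1 member at least 1.5-fold higher, against 1.23% of all genes, while 0 members were 2-fold higher, against 0.266%. In all, 23 members were below 0, against 49.7% of all genes. The median difference was -0.22 over the 31 members and 0.00 over all genes, of which the central 95% lay between -0.42 and 0.46. Below that range were 9 members and above it was 1. Another 9 members differed by less than 0.1, a count that was not made over all genes. The lower and upper quartiles were -0.57 and 0.01 over the members, and -0.12 and 0.12 over all genes. Differences of the members ran from -1.39 to 0.99, so they were not of one size. In liver RNA, fewer cells of a type and less of an RNA per cell cannot be told apart.

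**Figure D1:**
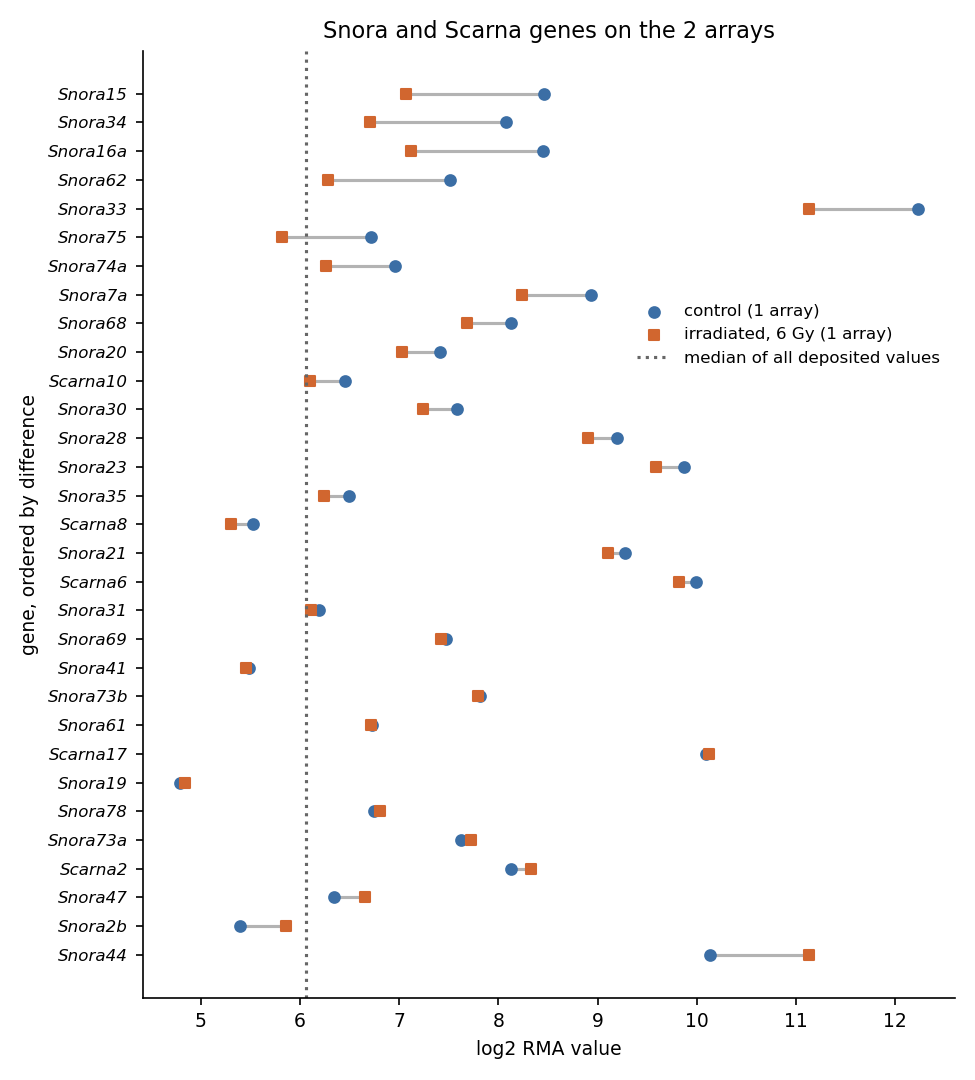
The log2 RMA value of each of the 31 genes (vertical axis, ordered by difference) on the control array (circles) and the irradiated array (squares), with the median of all deposited values, 6.06, as a dotted line. From Snora15 down to Snora7a the irradiated value lies well to the left of the control value, and Snora44 is the one gene with a wide gap to the right.

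Members under the median of all deposited values, 6.06, on both arrays were Snora19, Snora41, Snora2b and Scarna8. That level is a rank among all probe sets and not a measured background. The other 27 members reached it on at least 1 array and 26 on both, so 7 of the 8 lower genes were above it throughout. Snora75 passed it in the control alone. Control values of the members ran from 4.78 to 12.2 with a median of 7.59, and irradiated values from 4.84 to 11.1 with a median of 7.07. Since probes differ in how brightly they bind, levels of different genes are not ranked here.

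Lower genes are given first, by the kind of host gene they lie in. Guide RNAs within ribosomal protein genes were below 0 at all 6 loci, against 49.7% of all genes, with a median of -0.57. Snora62 lies within Rpsa, the gene of a small-subunit ribosomal protein, and read 7.51 in the control and 6.28 after irradiation, a difference of -1.23 or 2.35-fold. Rpsa itself read 10.73 and 10.78, so the host was level while the RNA inside it was lower. Snora33 lies within Rps12, another small-subunit gene, and read 12.23 and 11.13, a difference of -1.10. Rps12 differed by -0.08. A second probe set of Snora33, under 6.06 on both arrays, read 5.44 and 4.91, a difference of -0.53 that is short of 1.5-fold but in the same direction.

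Snora7a, within the large-subunit gene Rpl32, read 8.94 and 8.24, a difference of -0.70, while Rpl32 differed by -0.07. It was the smallest of the 8 differences past 1.5-fold. Of all members, the next one short of it was Snora68, at 8.13 and 7.68, a difference of -0.45. Snora21 within Rpl23 differed by -0.18 and Snora69 within Rpl39 by -0.05, so the ribosomal protein loci ranged from more than 2-fold lower to nearly equal. Rpl23 had no probe set of its own and its value is not given.

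Other protein-coding genes hosted 16 members, with a median of -0.26, 13 below 0 and 3 at least 1.5-fold lower. Of all genes, 49.7% were below 0 and 0.888% at least 1.5-fold lower. Snora15 had the most negative difference of all 31. It lies within Cct6a, a subunit gene of the cytosolic chaperonin, and read 8.46 in the control and 7.07 after irradiation, a difference of -1.39 or 2.63-fold. From the lowest up, that was rank 14 among all 22180 genes, while Cct6a differed by 0.03. Snora34, within Kansl2, a gene of a histone acetyltransferase complex, read 8.08 and 6.71, a difference of -1.37 at rank 16, and Kansl2 differed by 0.09. Both RNAs were therefore more than 2-fold lower beside a host that was level.

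Snora75 lies within Ncl, which encodes nucleolin, an abundant nucleolar protein. It read 6.71 and 5.81, a difference of -0.90. Set against the level of 6.06, under which its irradiated value lay, the difference was 1.57-fold. Ncl read 9.66 and 9.75.

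Smaller negative differences were found at RNAs of chaperone, translation and transport genes. Snora20, within the chaperonin gene Tcp1, read 7.41 and 7.02, a difference of -0.39. Snora30, within the chromatin remodeller gene Srcap, read 7.59 and 7.24. For Snora28, within the translation initiation factor gene Eif5, the values were 9.20 and 8.90. Those of Snora23, within the importin gene Ipo7, were 9.87 and 9.59. These 4 differences lay between -0.39 and -0.28, inside the central 95% of all genes.

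Snora35 lies within Htr2c, a serotonin receptor gene known from brain. It read 6.49 and 6.24, just above the median of all values, a difference of -0.25. Htr2c was under that median on both arrays, at 4.42 and 4.50. The probe set of Snora35 thus read above 6.06 in a tissue where its host did not.

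A further 4 Snora genes of protein-coding hosts were close to level or higher. Snora31, within Tpt1, the gene of a growth-related tumour protein, read 6.19 and 6.11, and Tpt1 differed by -0.30, the most negative difference of a host. Snora41, within the elongation factor gene Eef1b2, read 5.49 and 5.46, and Snora19, within the initiation factor gene Eif3a, 4.78 and 4.84. Snora19 had a second probe set with identical values. Snora47, within Zbed3, read 6.34 and 6.66, a difference of 0.32, with Zbed3 at 0.19. Of these 4 RNAs, Snora47 differed most and was short of 1.5-fold.

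Non-coding host genes, whose spliced transcripts have no known protein, held 7 members in 4 hosts, with a median of -0.01. The differences of these members ran from -1.34 to 0.99, the highest of all 31. Snora16a, within Snhg12, read 8.45 and 7.12, a difference of -1.34 or 2.53-fold. Snora44, within the same host, read 10.14 and 11.13, a difference of 0.99, or 1.99-fold, just short of 2-fold. Snora61, the third member there, read 6.73 and 6.72, a difference of -0.01. Of the 3 Snora genes of this one host, 1 was thus lower, 1 higher and 1 level. Snhg12 itself read 6.22 and 6.32, a difference of 0.11.

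Snora74a, within Snhg4, read 6.96 and 6.26, a difference of -0.70, with Snhg4 at 0.19. Snora73a and Snora73b, near-identical copies within Snhg3, are known for a role in the processing of the small-subunit ribosomal RNA rather than for guiding pseudouridylation. Snora73a read 7.62 and 7.72, and Snora73b 7.82 and 7.79, so both were level. Because their sequences are alike, their probe sets may not tell them apart. Snora78, within Snhg9, read 6.74 and 6.80.

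The 5 Scarna genes had a median of -0.18, and 0 of them were past 1.5-fold in either direction. With 0.888% of all genes lower and 1.23% higher by that much, 0 of 5 is near the share of all genes. Scarna10, within the condensin gene Ncapd2, read 6.46 and 6.10, a difference of -0.36, while Ncapd2 differed by 0.26, the highest difference of a host. Scarna8, within Haus6, read 5.53 and 5.31, and Scarna6, within the autophagy gene Atg16l1, 9.99 and 9.82. The 2 box C/D Scarna genes were the members with no host by the rule used here. Scarna2, which is known to be transcribed from its own promoter, read 8.13 and 8.32, a difference of 0.20. Scarna17 read 10.09 and 10.13, a difference of 0.04, but its second probe set, at 8.91 and 8.37, differed by -0.54. Its 2 probe sets did not give the same picture, and the direction of Scarna17 is not settled by them.

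Host genes were found for 29 of the 31 members as the gene whose span in the RefSeq gene table of GRCm38.p6 holds the small RNA, 25 hosts in all. That table gives no strand, so strand was not checked. Of these hosts 23 had a probe set of their own, and their differences lay between -0.30 and 0.26 with a median of 0.05. Of the 23, 8 were below 0, against 49.7% of all genes. Of the 23, 0 were 1.5-fold different, which with 0.888% of all genes lower and 1.23% higher by that much is near the share of all genes. The hosts of the 8 lower RNAs differed by -0.08 to 0.19. Among the 27 members whose host was measured, 21 had a more negative difference than their host. Across these 27 pairs the Pearson correlation of the differences was 0.03 and the Spearman correlation 0.12, a description of 2 arrays in which several pairs share a host.

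**Figure D2:**
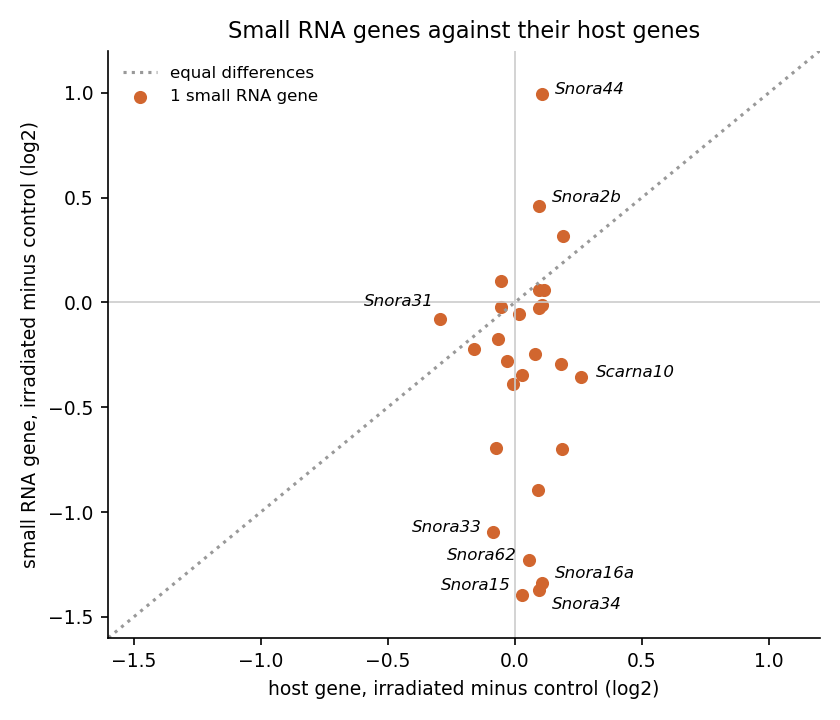
The difference, irradiated minus control on the log2 scale, of each of 27 small RNA genes (vertical axis) against that of its host gene (horizontal axis), both on the same scale, with equal differences as a dotted line. Hosts keep within -0.30 and 0.26 while the small RNAs spread from -1.39 for Snora15 to 0.99 for Snora44.

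Hosts with several small RNAs on the array allow RNAs of one precursor to be set side by side, counting box C/D genes (symbols starting with Snord) too. There were 4 such hosts. Within Snhg12 the differences ran from -2.01 for the box C/D gene Snord99, which read 10.57 and 8.56, to 0.99 for Snora44. Kansl2 holds Snora34, at -1.37, and Snora2b, which read 5.40 and 5.85, a difference of 0.46 with both values under 6.06. Within Ncl, Snora75 at -0.90 and the box C/D gene Snord82 at -1.63 were both lower. The copies Snora73a and Snora73b within Snhg3 differed by 0.10 and -0.02. At Snhg12, then, RNAs of one host differed in direction, while at Kansl2 the positive difference rests on Snora2b alone, which was short of 1.5-fold and inside the central 95% of all genes.

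**Figure D3:**
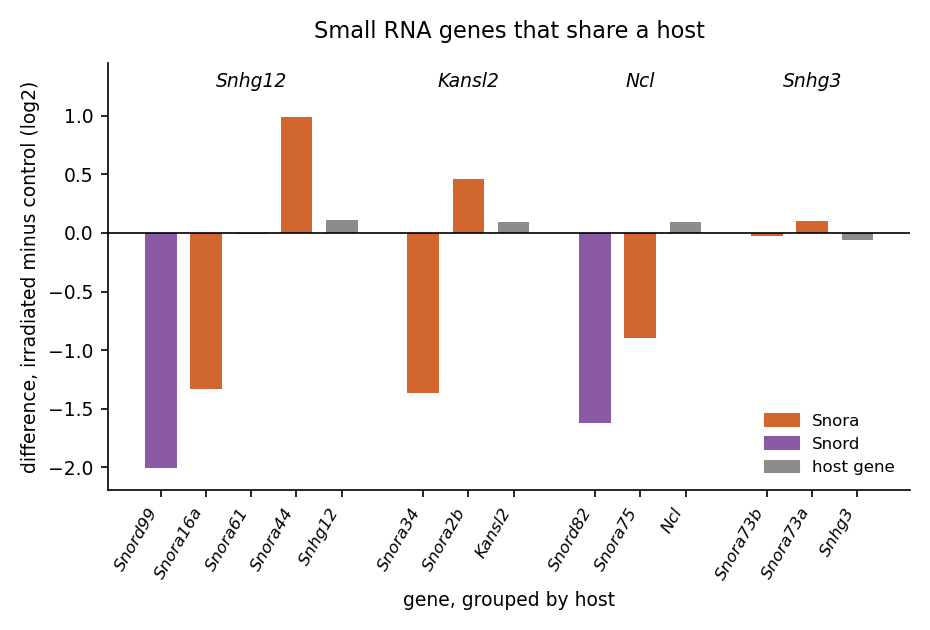
Bars give the difference, irradiated minus control on the log2 scale, of each Snora gene, each Snord gene and the host itself for the 4 hosts with several small RNAs on the array. Snhg12 holds RNAs on both sides of 0 by wide margins, Kansl2 holds 1 lower RNA and Snora2b, at 0.46 with both values under 6.06, both RNAs within Ncl are lower, and those within Snhg3 are close to 0.

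RNAs within an intron start from the promoter of their host, and the promoters of Snhg12 and Kansl2 are shown because their RNAs differed most among themselves. The sequences are the 250 bases before the start in RefSeq's annotation of GRCm38.p6, chr4:132308428-132308677 on the plus strand for Snhg12 and chr15:98534270-98534519 on the minus strand for Kansl2. Capitals mark matches to TATAA or to CCAAT or to the palindrome CACGTG, searched on both strands.
Snhg12: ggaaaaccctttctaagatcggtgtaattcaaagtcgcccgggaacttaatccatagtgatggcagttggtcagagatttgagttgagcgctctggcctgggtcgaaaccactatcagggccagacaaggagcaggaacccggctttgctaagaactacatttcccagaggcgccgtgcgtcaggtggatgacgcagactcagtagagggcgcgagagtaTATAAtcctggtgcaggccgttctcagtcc
Kansl2: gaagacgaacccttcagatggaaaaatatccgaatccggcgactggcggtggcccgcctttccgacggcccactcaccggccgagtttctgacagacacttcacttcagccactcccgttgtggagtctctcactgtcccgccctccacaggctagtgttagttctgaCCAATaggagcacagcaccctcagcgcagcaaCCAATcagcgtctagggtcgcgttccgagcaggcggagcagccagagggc
The Snhg12 window holds TATAA from 30 bases before the start, and the Kansl2 window holds CCAAT from 82 and from 50 bases before it. Over all 32851 windows of this length, TATAA was found in 22.8%, CCAAT in 33.8% and CACGTG in 6.02%. The table held windows for 21 of the 25 hosts, of which 6 had TATAA, 10 CCAAT and 2 CACGTG. A match describes the letters only, and says nothing of which factor is bound.

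The box C/D genes, the other large class of guide RNAs, also read lower. Over 47 Snord genes the median difference was -0.41, with 20 at least 1.5-fold lower, 0 as much higher and 35 below 0. Of all genes, 0.888% were as much lower, 1.23% as much higher and 49.7% below 0. On at least 1 array 34 Snord genes reached 6.06, of which 17 were at least 1.5-fold lower. Snora genes alone had a median of -0.26 over 26, with 20 below 0. MicroRNA genes (symbols starting with Mir) had a median of 0.03 over 484, with 8 at least 1.5-fold lower and 20 higher. Of the 484, 115 reached 6.06 on at least 1 array, and 0 of these 115 were as much lower and 6 higher. Among all genes that reached it, 0.65% were as much lower and 1.14% higher. The 5 spliceosomal and other genes with symbols starting with Rnu, or with Rn and a digit, had a median of 0.05. Recovery of short RNAs was not measured on either array, and its part in the lower values was not tested.

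**Figure D4:**
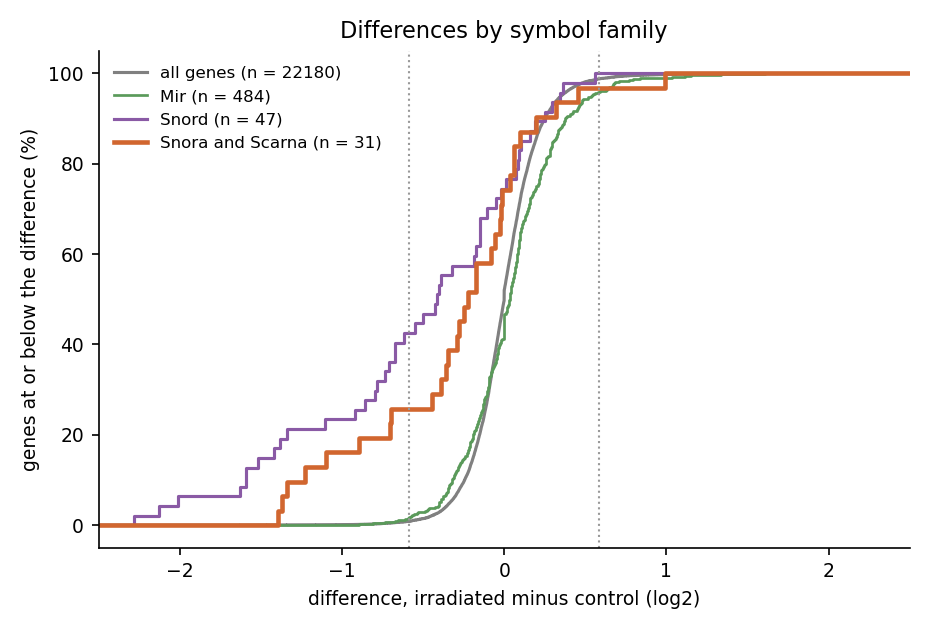
The share of genes (vertical axis, percent) at or below each difference, irradiated minus control on the log2 scale (horizontal axis), for 31 Snora and Scarna genes, 47 Snord genes, 484 Mir genes and all 22180 genes, with dotted lines at 1.5-fold. The Snora and Scarna line and the Snord line part from the others on the lower side, where 8 of 31 and 20 of 47 genes lie past 1.5-fold, against 0.888% of all genes.

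RefSeq lengths of the 31 members ran from 56 to 248 bases with a median of 118, and 28 were under 200. The 8 lower members were 105 to 198 bases long with a median of 123.5, and the others had a median of 117. Across the members the Spearman correlation of the difference with length was -0.08, and with the mean of the 2 values -0.09. The 2 medians were thus close, but every member shorter than 105 bases was among the others, as was the longest. These are lengths of RefSeq records, and whether each record holds the whole RNA was not checked. The part of RNA length in the lower values was not tested.

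Genes of the proteins that work with these RNAs are given next by list. With 0.888% of all genes at least 1.5-fold lower and 1.23% higher, a count of 0 in lists this short is no result about them. All 4 core proteins of the H/ACA particle were above 6.06, with 0 of 4 at 1.5-fold. Dkc1, which encodes dyskerin, the pseudouridine synthase of the particle, read 8.53 and 8.57. The other core genes Nhp2, Gar1 and Nop10 differed by -0.17, -0.16 and -0.06. Among the 5 assembly factors, Nufip1, a scaffold of particle assembly, differed most, by -0.30. The helicase genes Ruvbl2 and Ruvbl1, which serve several assembly pathways, differed by -0.16 and -0.13.

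Of 5 genes for Cajal body and nucleolar chaperone proteins 0 reached 1.5-fold. Nolc1, which encodes a nucleolar protein that binds snoRNA particles, read 8.49 and 8.12, a difference of -0.37. Tgs1, the gene of an RNA cap methyltransferase, differed by -0.21, and Wrap53, whose protein brings RNAs to Cajal bodies, by -0.04. Of 8 release and trimming factors 0 reached 1.5-fold either. Dbr1, which encodes the enzyme that opens intron lariats, differed by -0.28, and the exosome genes Exosc3 and Exosc10 by -0.18 and -0.10. Stand-alone pseudouridine synthases, which need no guide RNA, had a median of -0.07 over 12 genes, from -0.23 for Pus1 and -0.20 for Pus7 to 0.16 for Trub2.

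Telomerase RNA also has an H/ACA end and is bound by dyskerin. Its gene Terc read 11.51 and 11.13, a difference of -0.39, and Tert, the gene of the catalytic subunit, 7.25 and 6.97. Both were short of 1.5-fold.

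Names of a further 12 members appear on 13 probe sets that the annotation gives to several genes, most often a host or a microRNA, and these are outside the counts above. Their median difference was -0.07, and 11 of the 13 were below 0, where 49.7% of all genes counted above were. The lowest was Snora70, shared with Rpl10 and Gm5621, at 4.92 and 3.93, a difference of -0.99 with both values under 6.06. Every other one was short of 1.5-fold, the next being Snora36b, shared with Mir664, at -0.36. Snora17, shared with the host Snhg7 on 2 probe sets, differed by -0.25 and -0.08. Snora26, Snora57, Snora64, Snora65 and Scarna9 are in the RefSeq table and were not analysed here.

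Hepatocyte markers were high on both arrays, as the tissue label says, with control values of all 6 between 12.8 and 13.7. These lie close to the highest value on the control array, 13.9, so their median difference of -0.01 says little about hepatocyte content. Most markers of other cells were higher on the irradiated array. All 8 measured of 11 bile duct markers were above 0, against 47.9% of all genes. Of the 8, 5 were at least 1.5-fold higher, against 1.23% of all genes. The mean level of the 8 was 6.35 on the control and 7.48 on the irradiated array. All 6 smooth muscle markers were above 0 too, 5 of them at least 1.5-fold higher, with mean levels of 7.19 and 8.39. Of the 6 measured of 7 pancreas and gut markers, 5 were above 0 and 4 at least 1.5-fold higher. The mean levels of these 6 were 6.32 and 8.05. Reg1, Muc3, Ctrb1 and Lgals4 were higher by 3.83, 2.79, 2.65 and 1.06, while Cpa1 and Cela1 of the same list differed by 0.02 and -0.02. In the bile duct list Cftr was under 6.06 on both arrays, as Cpa1 was among the pancreas genes. The part of these cells in the lower Snora values was not tested.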

How the data were processed

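Liver RNA of 1 control and 1 irradiated sample was measured on 2 Affymetrix whole-transcript arrays from 300 ng of total RNA each. The authors deposited 1 log2 value per probe set, made with RMA in Affymetrix Expression Console 1.3.1 per the submitters' processing notes. No header names the log base, and the values, from 1.46 to 13.9, were read as log2. Total RNA came from a column kit, per the labels' protocols. Such kits recover short RNAs incompletely, and that recovery was not measured. Probes within a small RNA can also bind its unspliced host transcript.

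Of 41345 probe sets, the 23521 with exactly 1 symbol in GEO's platform annotation, which can be old, gave 22180 genes. For each gene the probe set with the highest mean was kept. No filter on low values was used for counts. All 31 members matched the RefSeq table. Hosts were to be matched on strand too, but the table has no strand. The name of 1 host is not reported here.

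Members, lists, folds and alternatives were chosen with earlier results of these data known. Named were all members above the median of all values, the core and telomerase genes, up to 3 more per list, and hosts. Snord99, Snord82, Cftr, Cpa1, Cela1, Lgals4, the 4 members under the median and probe sets with several symbols were named after their values were seen. Counting was tested on simulated data. Python 3.11.15, pandas 2.3.3 and statsmodels 0.14.6 were used. The number of arrays limits the precision.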

Additional observations from a re-analysis of the deposited data

How the results depend on the processing

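Alternatives changed the filter on low values, the probe set per gene, the scaling, the offset (32 on the linear scale) and the use of probe sets with several symbols. Taking 1 value per host, leaving out Scarna2 and Scarna17 and asking for both values at the median were chosen after seeing the data. The number of members at least 1.5-fold lower was 6 to 9 and the median over members -0.28 to -0.17. Of all genes, the share as much lower ran from 0.298% with the offset to 1.11% with each array centred on its median. Members as much lower were 7 of 31 with the offset and 8 of 31 with the centring. The 6 was out of 27, with 1 value per host, and the 9 out of 42, with probe sets of several symbols added. Without alternatives it was 8 of 31. With 1 value per host, which averages Snora16a with Snora44 and Snora34 with Snora2b, 0 of 27 were 1.5-fold higher and 3 were 2-fold lower. All genes were not averaged in that way, and without alternatives 1.23% of them were 1.5-fold higher and 0.144% 2-fold lower. Snora44 was past 2-fold with quantile or loess scaling (1 member). The Scarna median was -0.070 over 4 genes under each of the 3 filters, which drop Scarna8. Of the members' own differences, 324 values kept their side of 1.5-fold, 2 did not, and 0 of the differences past 1.5-fold reversed. Many of the 324 could not have changed, so their number is no measure of stability. Filters, left-out genes and added probe sets with several symbols leave a member's own difference as it was. The choice of probe set could change only Snora33 and Scarna17. Scarna17, short of 1.5-fold, turned from 0.04 to -0.54 with its lowest probe set and to -0.25 with the mean of its probe sets. The 2 values that did not keep their side were Snora33 with its lowest probe set (-0.53) and Snora74a with the offset (-0.53). No paired analysis was possible because there was 1 array per group. The spread between animals is unknown, and values near or under 6.06 may hold little signal.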
